A study of Mus musculus with 17 samples.

Results

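The genes examined here were 10 markers of dentate granule cells, the principal neurons of the dentate gyrus: Prox1, Dsp, Lct, C1ql2, Plk5, Fam163b, Calb1, Tdo2, C1ql3 and Npnt. They were taken by symbol from a table of read counts with 24498 gene symbols, and all 10 were present and passed the filter on low counts in every edgeR fit. The table came from bulk sequencing of poly(A) RNA of 17 mouse dorsal hippocampus samples, slices each 1 mm thick and cut to hold CA1, CA2, CA3 and the dentate gyrus. Per the labels, the RNA protocol includes perfusion with PBS and then with a paraformaldehyde fixative before dissection, which the study's methods describe for histology, and each library was made from 300 ng of total RNA. Animals were either wild type (WT) or had a whole-body knockout (KO) of Acss2, the gene for the enzyme that makes acetyl-CoA from acetate, and WT controls and KO mice were bred as homozygotes from F1 progeny of heterozygous cages. At 6 months of age they received tau purified from the frontal cortex of people with Alzheimer's disease (Tau) or phosphate-buffered saline (PBS), injected into the right dorsal hippocampus. Males had 4 groups of 3 libraries (WT or KO, each after PBS or Tau). Females were sequenced after Tau alone, with 2 WT and 3 KO libraries. Each library goes by its label's number. The labels do not say whether each library came from a separate mouse, so p-values measure only the spread between these samples.

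Granule cells form a dense cell layer in the dentate gyrus, receive the perforant path from the entorhinal cortex and send mossy fibers to CA3. Prox1 is the homeodomain transcription factor that specifies and maintains this cell type, and Dsp encodes desmoplakin, a protein that anchors intermediate filaments at cell junctions. C1ql2 and C1ql3 encode secreted synaptic organizers of the C1q family, and C1ql2 is released at mossy fiber synapses. Calb1 encodes the calcium-binding protein calbindin, which is abundant in granule cells but is also made by CA1 pyramidal cells, striatal projection neurons and interneurons. Npnt encodes nephronectin, an extracellular matrix ligand of integrins. Tdo2 (tryptophan dioxygenase) and Lct (lactase) are enzymes better known from the liver and the gut, Plk5 encodes a polo-like kinase family member found in the brain, and Fam163b encodes a small membrane protein whose role is little studied. Because the measure is RNA of a whole slice, fewer granule cells in the slice and less RNA of a gene per granule cell cannot be told apart.

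The promoters of 4 of the 5 genes whose levels moved together across libraries (described further on) are shown to let their sequence be compared. Each run holds the 250 bases before the transcription start in RefSeq (GRCm38.p6), 5′ to 3′ on the strand of the gene, and capitals mark matches to any of 3 motifs on either strand. The stretches lie at chr1:190170828-190171077 (minus strand) for Prox1, chr13:38151044-38151293 (plus strand) for Dsp, chr1:120340332-120340581 (plus strand) for C1ql2 and chr1:128328319-128328568 (minus strand) for Lct.
Prox1: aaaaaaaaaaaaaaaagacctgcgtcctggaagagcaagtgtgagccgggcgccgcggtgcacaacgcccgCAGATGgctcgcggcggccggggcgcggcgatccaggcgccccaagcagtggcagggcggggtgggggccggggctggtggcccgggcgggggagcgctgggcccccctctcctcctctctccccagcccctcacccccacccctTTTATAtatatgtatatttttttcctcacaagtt
Dsp: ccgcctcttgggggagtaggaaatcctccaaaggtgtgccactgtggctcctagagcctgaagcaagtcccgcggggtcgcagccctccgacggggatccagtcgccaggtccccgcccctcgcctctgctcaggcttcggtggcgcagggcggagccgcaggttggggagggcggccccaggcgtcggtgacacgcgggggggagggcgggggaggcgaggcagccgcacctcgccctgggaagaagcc
C1ql2: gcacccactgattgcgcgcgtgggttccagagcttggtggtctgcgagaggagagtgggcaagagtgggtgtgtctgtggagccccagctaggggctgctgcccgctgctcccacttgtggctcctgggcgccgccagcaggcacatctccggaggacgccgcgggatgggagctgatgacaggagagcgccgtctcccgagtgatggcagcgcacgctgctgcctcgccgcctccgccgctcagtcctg
Lct: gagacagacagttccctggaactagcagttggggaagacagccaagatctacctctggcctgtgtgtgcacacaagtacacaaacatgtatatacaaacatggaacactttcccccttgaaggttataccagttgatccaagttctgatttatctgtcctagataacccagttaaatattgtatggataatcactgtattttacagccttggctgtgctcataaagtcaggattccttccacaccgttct
The motifs were an E-box of the type bound by NEUROD factors (CAGATG), a short site of the RFX factors (GTTGCC) and the TATA box (TATAAA). They were searched in RefSeq promoters of 300 bases, from 250 before the start to the first 50 transcribed. The E-box was in 17.2% of all 32851 promoters, the RFX site in 12.5% and the TATA box in 13.6%. Of the 10 genes, 9 had promoter entries, 11 in all, and Calb1 had none. The E-box matched 1 entry (Prox1), the TATA box 2 (Prox1 and Tdo2) and the RFX site 0. Of the 5 genes that moved together, Prox1 and Tdo2 thus shared the TATA box string and no string was common to all 5.

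Total counts ran from 14183131 to 22463635 per library. Acss2, the targeted gene, lay between 44.0 and 54.6 CPM (counts scaled to a common library total) in the 8 WT libraries and between 3.08 and 8.81 CPM in the 9 KO libraries, as the labels say. Per kilobase of exon, the scale on which genes can be compared, the 10 genes in male WT PBS were led by Fam163b at 52.8 ± 10.2 CPM per kb and C1ql2 at 44.4 ± 7.82 (SD, n = 3). C1ql3 followed at 34.8 ± 0.87 and Calb1 at 28.8 ± 5.62 CPM per kb. Plk5 stood at 11.3 ± 3.002, Lct at 6.68 ± 2.65, Npnt at 5.21 ± 0.916, Prox1 at 3.94 ± 1.03, Dsp at 3.25 ± 0.787 and Tdo2 at 1.26 ± 0.274 CPM per kb. Neighbours in this order whose means differed by less than the larger SD of the pair were Fam163b and C1ql2, Lct and Npnt, and Prox1 and Dsp.

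Male KO libraries stood apart from the rest, and 4 of them are named wherever a result rests on them. Male KO PBS 751 held the highest level of Prox1, Dsp, Lct, C1ql2, Fam163b and Tdo2 among the 17 libraries. Male KO PBS 752 held the lowest level of Prox1, Dsp, Lct, C1ql2, Tdo2 and C1ql3. In male KO Tau, library 711 lay above all male WT libraries for Prox1, Dsp, Lct, C1ql2, Fam163b and Tdo2. For Dsp and C1ql2 it was well below 751. Library 712 was the lowest after 752 for Prox1, Dsp, Lct, C1ql2 and Tdo2, but not for C1ql3.

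The transcription factor Prox1 (ENSMUSG00000010175.13, GRCm38 chr1:190118035-190170714, minus strand) was at 35.4, 40.2 and 23.4 CPM in male WT PBS (libraries 791, 792 and 793, in that order for all genes) and at 32.4, 42.6 and 35.5 CPM in male WT Tau (771, 772 and 773). It was at 61.4, 8.83 and 25.2 CPM in male KO PBS (751, 752 and 753) and at 51.5, 9.59 and 15.1 CPM in male KO Tau (711, 712 and 713). In females it was at 42.1 and 46.5 CPM in WT Tau (331 and 341) and at 25.2, 24.0 and 48.1 CPM in KO Tau (314, 324 and 325). The 6 male WT libraries thus differed by at most 1.82-fold, while the 6 male KO libraries spanned 6.96-fold and lay both above and below all male WT libraries.

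The junction gene Dsp (ENSMUSG00000054889.10, chr13:38151294-38198577, plus strand) had the widest range of the 10. It was at 32.2, 38.6 and 23.4 CPM in WT males after PBS and 27.2, 46.0 and 31.7 CPM after Tau, a range of 1.96-fold. In male KO PBS it was at 88.7, 0.907 and 23.5 CPM and in male KO Tau at 51.9, 4.64 and 16.2 CPM, a range of 97.8-fold. Library 752 held 15 counts of Dsp (95% exact Poisson interval 8.40 to 24.7, which covers counting error only) against 1748 counts in 751. Female levels were 36.0 and 49.1 CPM in WT Tau and 26.1, 15.6 and 46.4 CPM in KO Tau, and the groups overlapped.

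The lactase gene Lct (ENSMUSG00000026354.8, chr1:128284756-128328318, minus strand) repeated this order of libraries. Its levels were 48.2, 56.4 and 23.7 CPM in WT males after PBS and 43.9, 66.0 and 47.9 CPM after Tau. They were 85.6, 1.21 and 37.4 CPM in male KO PBS and 82.8, 5.94 and 28.9 CPM in male KO Tau, so that 751 and 711 exceeded every WT library and 752 and 712 lay below every other library. Females were at 27.0 and 38.8 CPM in WT Tau and 25.3, 21.5 and 41.7 CPM in KO Tau, with 325 the highest of the 5. The count in 752 was 20 (exact Poisson interval 12.2 to 30.9).

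The mossy fiber gene C1ql2 (ENSMUSG00000036907.9, chr1:120340582-120343174, plus strand) had the narrowest range of this set in WT males, at 96.6, 99.1 and 70.8 CPM in PBS and 88.4, 105 and 94.0 CPM in Tau males. In KO males it was at 171, 4.96 and 55.1 CPM after PBS and 118, 25.7 and 37.5 CPM after Tau. The KO range of 34.6-fold compared with 1.48-fold among the WT males. In females it was at 104 and 73.9 CPM in WT Tau and 30.0, 32.3 and 124 CPM in KO Tau, where 314 and 324 lay below both WT libraries and 325 above them.

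Tdo2 (ENSMUSG00000028011.16, chr3:81957090-81976202, minus strand) was the least abundant, at 6.03, 4.65 and 3.94 CPM in WT males after PBS and 5.79, 6.19 and 5.61 CPM after Tau. It was at 9.74, 0.725 and 2.75 CPM in male KO PBS and 6.94, 1.09 and 1.79 CPM in male KO Tau. Its female levels were 6.60 and 6.05 CPM in WT Tau and 2.96, 2.39 and 8.40 CPM in KO Tau. The male KO groups again reached above and below the WT libraries, and Tdo2 in 752 rested on 12 counts (exact Poisson interval 6.20 to 21.0).

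Fam163b and Plk5 varied less. Fam163b (ENSMUSG00000009216.7, chr2:27110380-27142491, minus strand) was at 169, 178 and 122 CPM in WT males after PBS and 119, 148 and 165 CPM after Tau, and at 202, 114 and 109 CPM in KO males after PBS and 184, 126 and 147 CPM after Tau. In females it was at 111 and 133 CPM in WT Tau and 99.2, 67.2 and 121 CPM in KO Tau. Library 752 was thus not the lowest for Fam163b, since 753 and 3 female libraries lay below it. The kinase gene Plk5 (ENSMUSG00000035486.14, chr10:80356459-80365489, plus strand) was at 35.9, 33.7 and 21.0 CPM in WT males after PBS and 23.6, 27.2 and 37.3 CPM after Tau, and at 35.4, 24.5 and 14.3 CPM in KO males after PBS and 42.9, 20.1 and 21.3 CPM after Tau. Its female levels were 24.0 and 19.7 CPM in WT Tau and 13.5, 11.3 and 32.1 CPM in KO Tau, with 314 and 324 the lowest of the 17 libraries.

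The order of libraries was different for Calb1, C1ql3 and Npnt. Calbindin (Calb1, ENSMUSG00000028222.2, chr4:15881264-15908064, plus strand) was at 169.6, 117 and 131 CPM in WT males after PBS and 110.1, 108 and 121 CPM after Tau, and at 136, 100.3 and 63.5 CPM in KO males after PBS and 79.3, 129 and 107 CPM after Tau. Within male KO Tau its order was inverted relative to Prox1, with 712 the highest and 711 the lowest. In females Calb1 was at 127 and 148 CPM in WT Tau and 149.6, 67.8 and 141 CPM in KO Tau.

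The second C1q family gene, C1ql3 (ENSMUSG00000049630.6, chr2:13003457-13011806, minus strand), was at 90.7, 86.3 and 87.9 CPM in WT males after PBS and 90.5, 74.4 and 88.1 CPM after Tau, and at 109, 47.3 and 53.6 CPM in KO males after PBS and 73.9, 87.5 and 74.7 CPM after Tau. Its female levels were 109 and 110.3 CPM in WT Tau and 74.5, 57.2 and 129 CPM in KO Tau. It shared the low level of 752 with C1ql2, but was not low in 712. The matrix gene Npnt (ENSMUSG00000040998.18, chr3:132881745-132950291, minus strand) was at 26.3, 30.7 and 21.5 CPM in WT males after PBS and 21.2, 22.2 and 24.6 CPM after Tau, and at 38.9, 31.0 and 15.7 CPM in KO males after PBS and 23.2, 37.8 and 47.9 CPM after Tau. It was at 26.3 and 28.0 CPM in female WT Tau and 17.4, 10.2 and 38.6 CPM in female KO Tau. Libraries 712 and 713, low for Prox1, were among the 4 highest for Npnt.

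**Figure D1:**
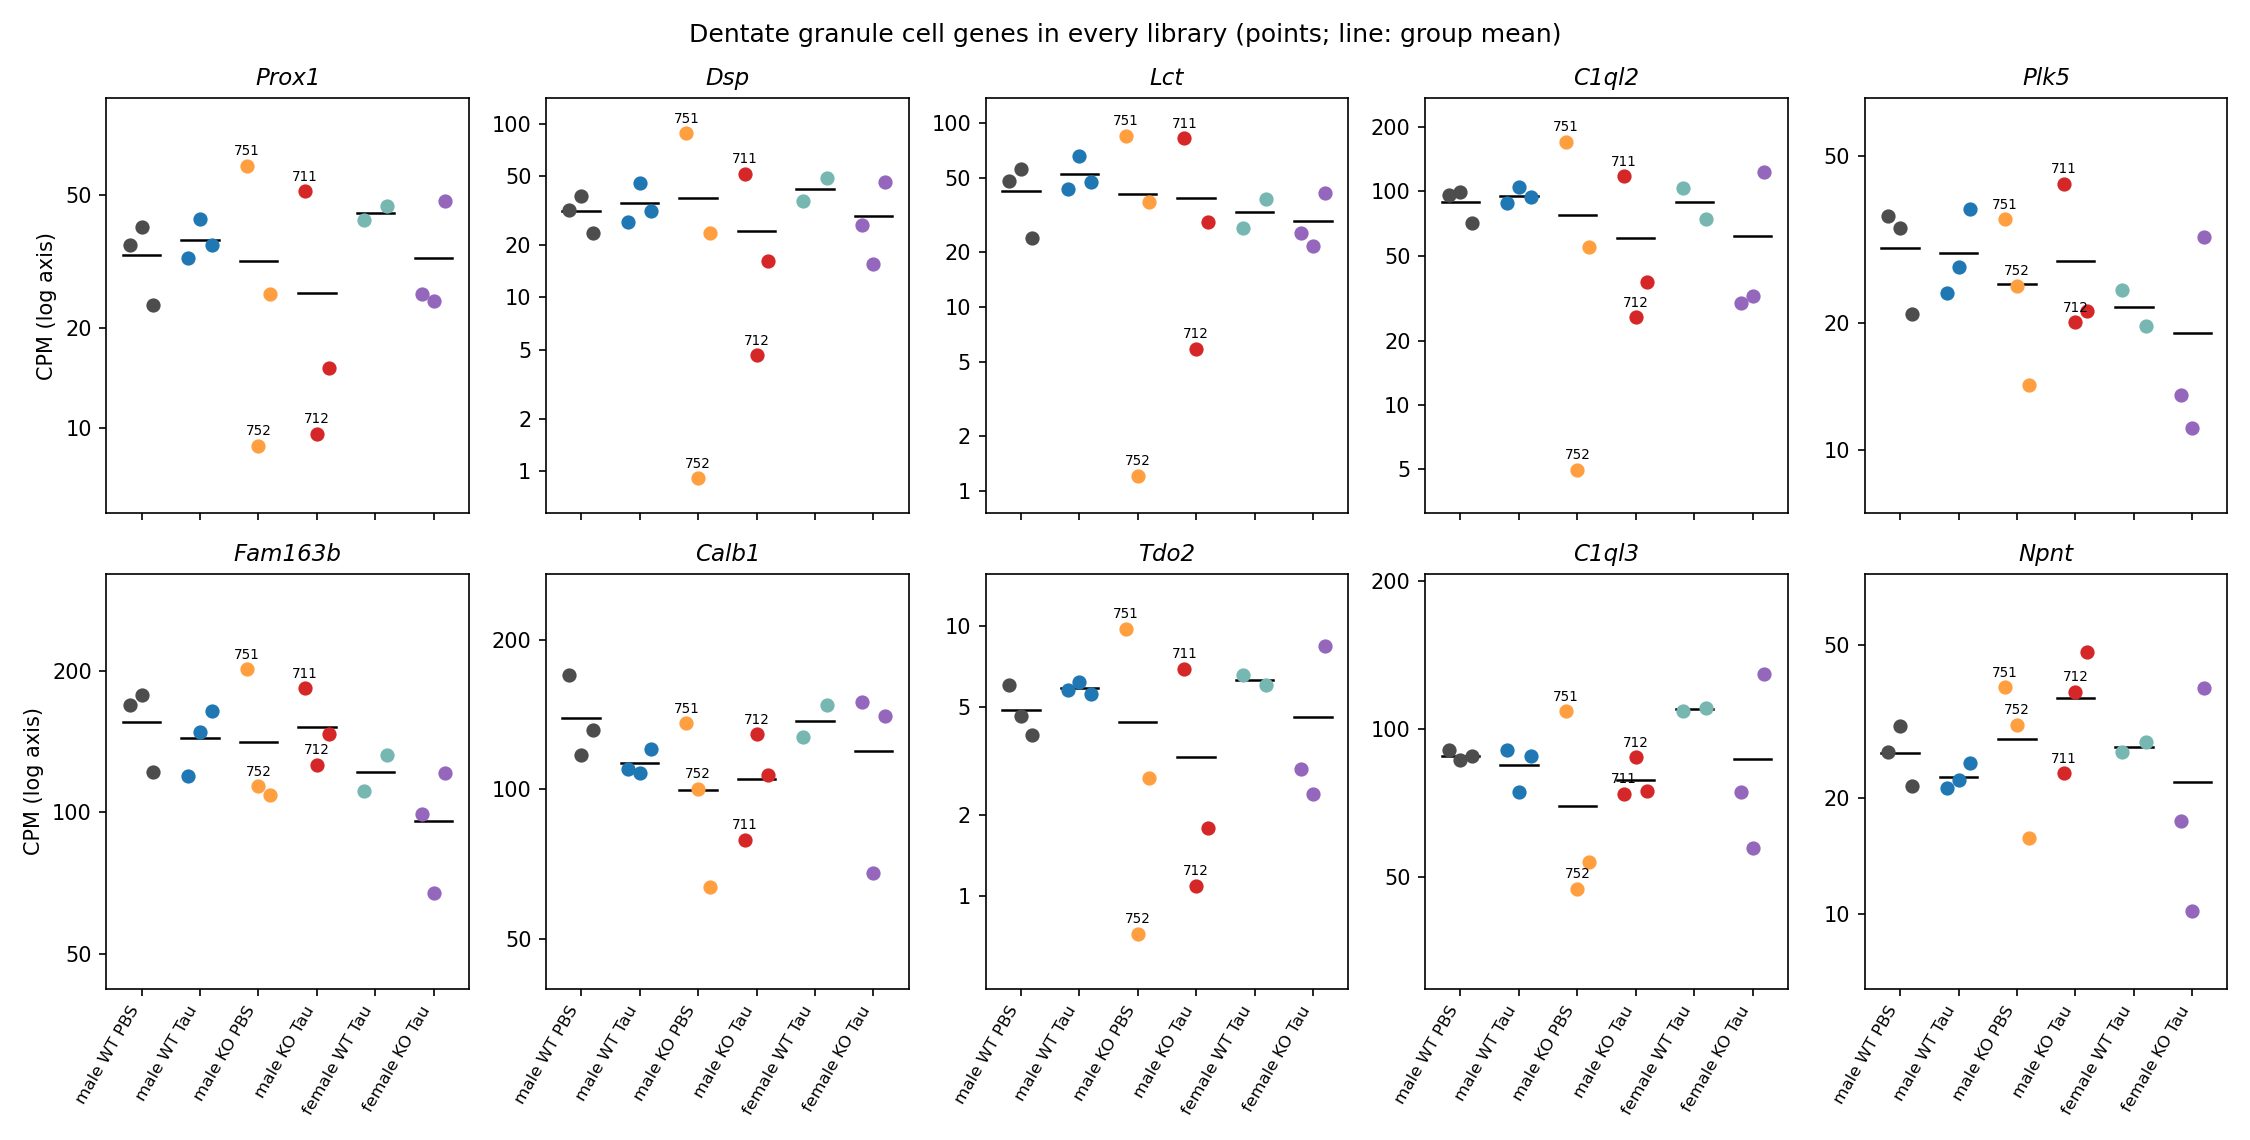
Levels of the 10 genes in CPM (log axis) in each of the 17 libraries, by group; points are libraries, lines are group means, and the numbers name 4 male KO libraries. For Prox1, Dsp, Lct, C1ql2 and Tdo2 the male KO groups reach from above to below all male WT libraries. They do so more narrowly for Plk5, Fam163b, C1ql3 and Npnt, while no male KO library lies above all male WT libraries for Calb1.

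**Figure D2:**
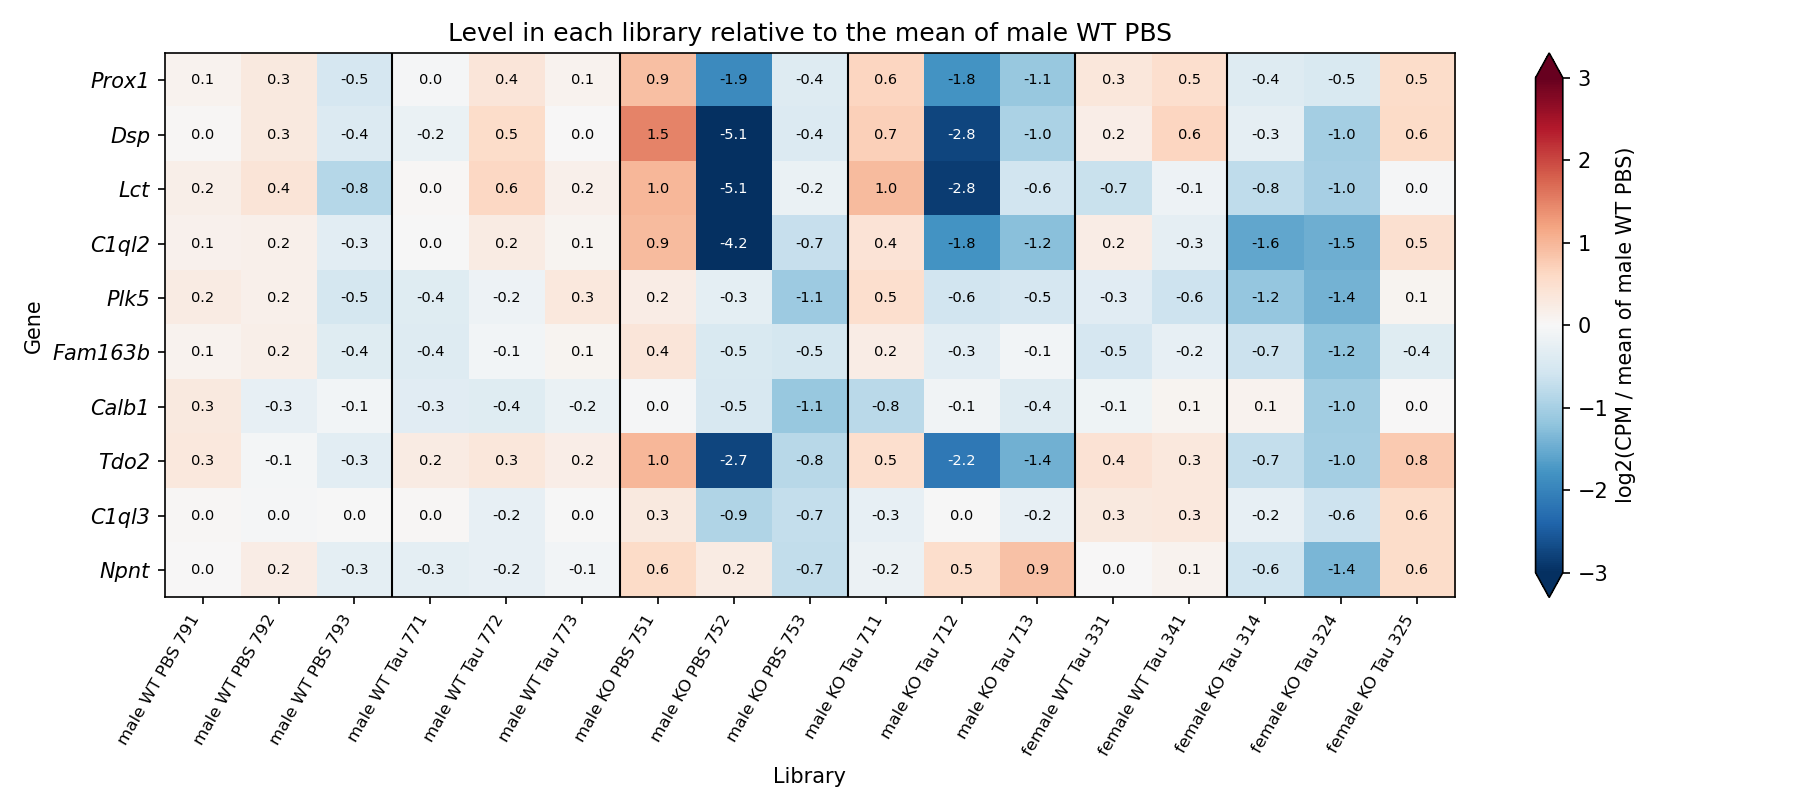
Level of each gene (rows) in each library (columns), as log2 of its CPM over the mean CPM of the 3 male WT PBS libraries, with colours ending at 3 in either direction. Male KO PBS 752 and male KO Tau 712 are blue for Prox1, Dsp, Lct, C1ql2 and Tdo2 and near white for Calb1.

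The spread between libraries of 1 group was wide for all 10 genes when set against the other genes. The pooled within-group SD of log2 CPM ranged from 0.35 (Fam163b) to 1.65 (Dsp), and each exceeded the median of 0.21 over 15594 genes. Dsp, Lct and C1ql2 stood at the 99.9, 99.9 and 99.6 percentiles of this SD, Tdo2 at 98.6, Prox1 at 96.9 and Fam163b, the lowest, at 74.6. The median SD of the 10 genes was 0.29 and 0.18 in WT males (PBS, then Tau), 1.05 and 0.89 in KO males, 0.18 in WT females and 0.67 in KO females. All 3 KO groups were thus more variable than the 3 WT groups, and over all genes the medians were 0.11, 0.12, 0.21, 0.23, 0.18 and 0.20 in the same order. The share of variance between groups was 3.91% (Fam163b) to 27.7% (Calb1) for these genes among the 12 male libraries, against a median of 24.5% over all genes. This share is not corrected for the number of groups, so part of it arises even where groups do not differ.

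The 10 genes fell into sets by how they moved between libraries of a group, which were formed after their values were seen and are a description. As deviations of log2 CPM from group means over 17 libraries, which share their scaling to library totals, Prox1, Dsp, Lct, C1ql2 and Tdo2 correlated with each other at r from 0.894 to 0.986. Without 751 and 752 the range was 0.767 to 0.969 over 15 libraries. Plk5 and Fam163b correlated with those 5 genes at r from 0.349 to 0.752, and at 0.631 to 0.90 without 751 and 752. C1ql3 correlated with them at 0.458 to 0.677, but at −0.026 to 0.426 without 751 and 752, so where it belongs depended on those libraries. Calb1 and Npnt correlated with the 5 genes at −0.08 to 0.173, and at −0.276 to 0.230 without 751 and 752. Among themselves Calb1, C1ql3 and Npnt correlated at r from 0.655 to 0.750, though C1ql3 correlated at least as closely with Fam163b (0.684) and C1ql2 (0.677) as with Calb1 (0.655). The ratio of Tdo2 to Prox1 shows the first set directly, at 0.0997 to 0.179 in 16 libraries and 0.0822 in 752. The ratio of Dsp to Prox1 was 0.103 in 752 and 0.484 in 712, against 0.840 to 1.44 in the other 10 male libraries, so Dsp was lower than Prox1 by more in those 2 libraries than elsewhere in males. For Fam163b the ratio to Prox1 moved the other way, at 12.9 in 752 and 13.2 in 712 against 3.28 to 9.71 in the other 10 males.

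**Figure D3:**
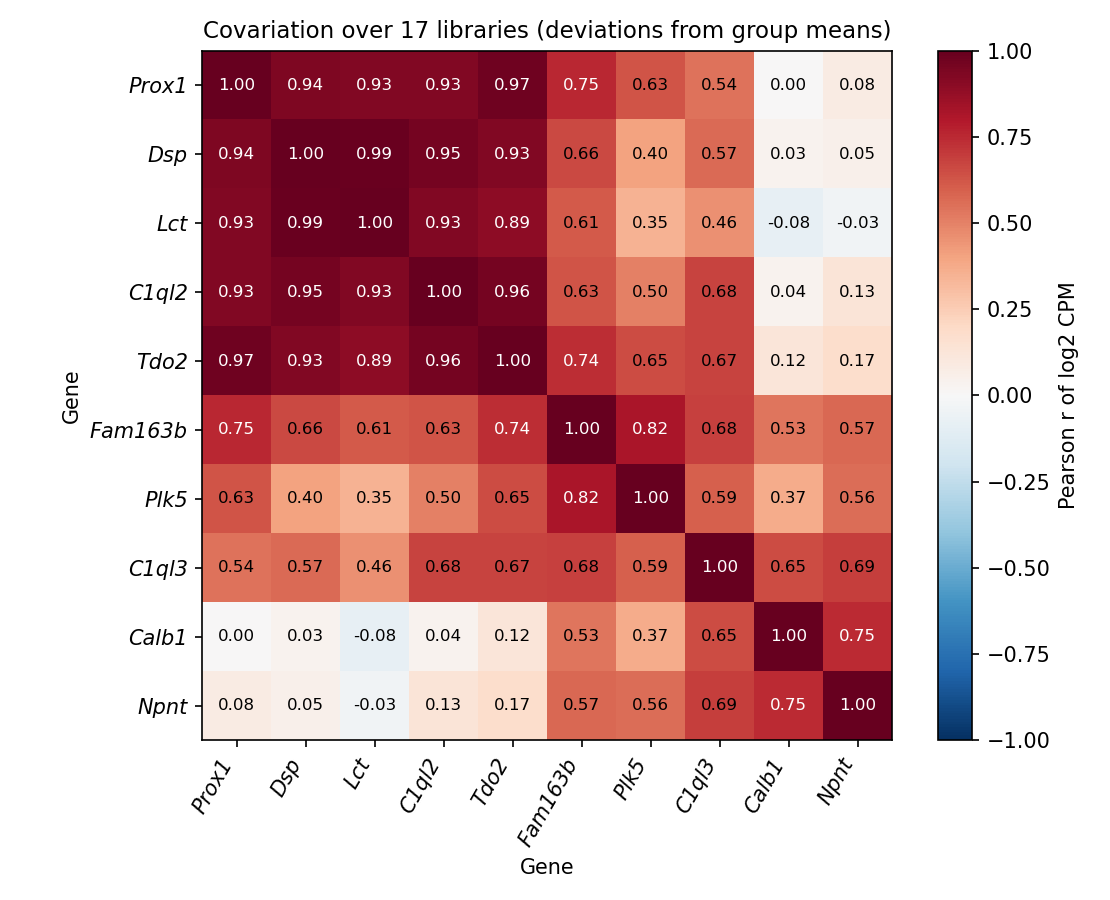
Pearson correlation between the 10 genes of log2 CPM over the 17 libraries, each as its deviation from the group mean; colours run from −1 to 1. Prox1, Dsp, Lct, C1ql2 and Tdo2 form a block at 0.894 or higher, and Calb1 and Npnt lie near 0 with that block.

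Another 12 genes known from granule cells (among them Dock10, Trpc6, Stxbp6, Maml2, Maml3, Glis3, Pdzd2, Ablim3, Il16, Rfx3 and Sema5b) gave a second reading of the same libraries, with no gene in common. The mean log2 CPM of the 10 genes, as a score for each library, correlated with the mean of these 12 at r = 0.980 over the 17 libraries as deviations from group means, and at 0.976 without 751 and 752. The score of the 10 genes was 6.24 in 751, 5.78 in 711, 4.32 in 712 and 3.49 in 752, and the score of the 12 was 5.34, 5.05, 4.06 and 4.02 in the same libraries. The WT males lay between 5.13 and 5.64 on the first score and between 4.59 and 5.02 on the second. Not all of the 12 followed. Pdzd2 was at 41.2 CPM in 751 and 97.3 CPM in 752, Maml3 at 13.75 and 19.65 CPM, and Sema5b at 21.5 and 22.1 CPM.

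**Figure D4:**
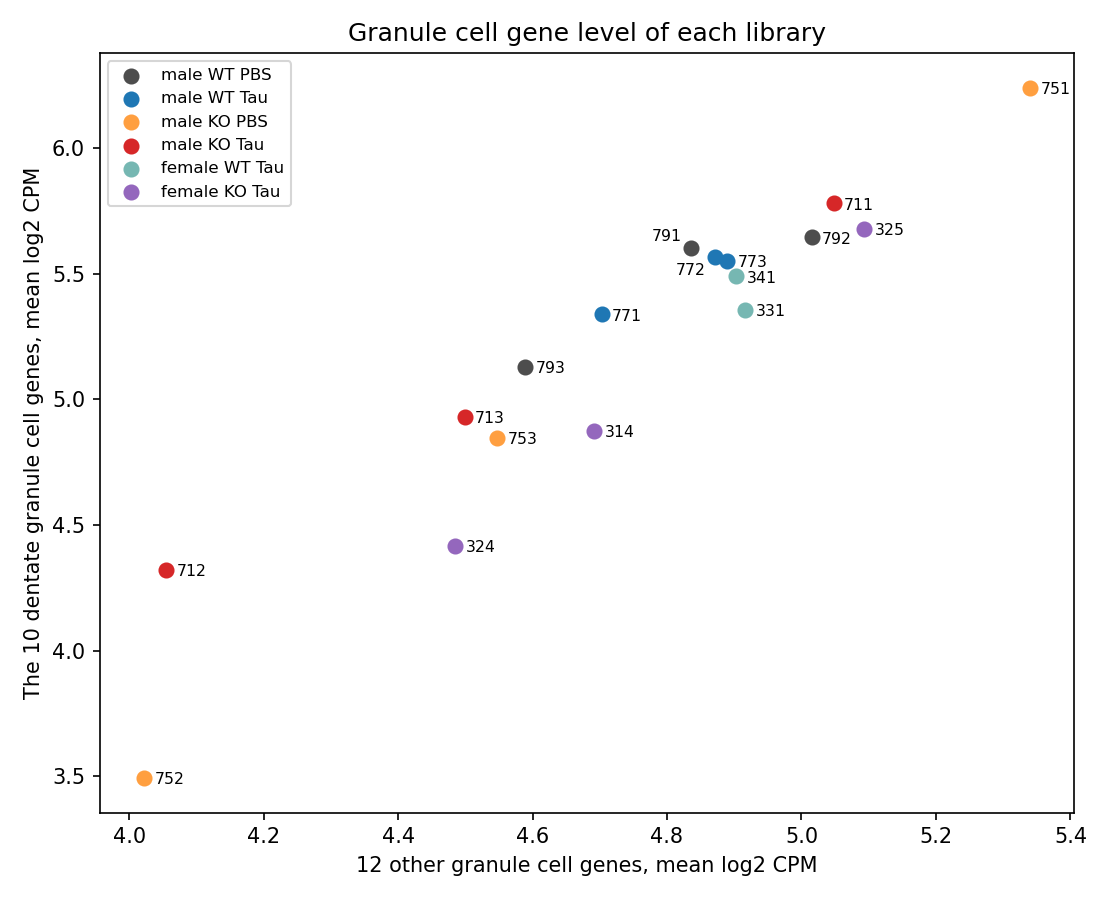
Mean log2 CPM of the 10 dentate granule cell genes (vertical axis) against that of 12 other granule cell genes (horizontal axis), with 1 point per library, coloured by group. Library 752 is the lowest on both axes (3.49 and 4.02) and 751 the highest (6.24 and 5.34), and all 6 male WT libraries lie between them. Library 712 (4.32 and 4.06) lies above 752 at nearly the same horizontal value.

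Markers of other regions and cell types moved with the granule cell score too, and their part in the results was not tested. No marker on these lists had a count of 0 in library 752. The summed level of 6 striatal markers was 444 CPM in 752 and 64.5 to 157 CPM in the other 16 libraries, with 712 the next highest. The 6 inhibitory neuron markers summed to 1196 CPM in 752 and 482 to 1016 in the other 16. The 5 CA2 markers summed to 60.7 CPM in 752 and 74.7 in 712, against 129 to 183 CPM in the 6 WT males. Female WT Tau 331 was at 68.5 CPM. The 6 CA1 markers summed to 425 CPM in 752 and 668 in 712. Both lay within the range of the other 15 libraries, 345 to 921 CPM. The sum of neocortical markers was highest in 712, at 380.4 CPM, against 286 CPM in 752 and 124 to 289 CPM in the other 15 libraries. Single markers differed. Rorb, Cux2 and Rspo1 were higher in 752 (75.3, 121 and 32.7 CPM) than in 712 (41.2, 89.5 and 10.0 CPM). Fezf2, Scnn1a and Tshz2 were higher in 712. Library 711, with high granule cell genes, had the most oligodendrocyte and astrocyte marker RNA of the male libraries, at 6927 and 2454 CPM. It also had the least inhibitory neuron marker RNA of the males, at 608 CPM, and the highest sum of 4 nuclear-retained RNAs (Malat1, Meg3, Miat and Snhg11) of all 17 libraries, at 5728 CPM against 2028 to 4535 CPM in the other males. Library 713 held 4042 CPM of 8 choroid plexus markers, against 25.9 to 580 CPM elsewhere.

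As deviations from group means over the 17 libraries, the granule cell score correlated with the scores of inhibitory neuron markers at r = −0.728, striatal markers at −0.694 and neocortical markers at −0.641. It correlated with CA2 markers at 0.731, CA1 at 0.547 and CA3 at 0.444. Without 751 and 752 these 6 values were −0.555, −0.228, −0.345, 0.445, 0.0848 and 0.0751, so those with CA1, CA3 and striatal markers rested largely on those libraries. Astrocyte markers correlated with the score at 0.677 and microglia markers at 0.576, and at 0.787 and 0.600 without 751 and 752. The immature granule cell markers (Dcx, Sox11, Igfbpl1, Draxin, Eomes and Neurod1) correlated at 0.716 and, without 751 and 752, at 0.730. Only the 5 of these 6 that passed the filter on low counts entered the score. Igfbpl1, Draxin and Eomes were at 0.961 CPM or less in every library. Dcx, the microtubule protein of newborn neurons, was nevertheless at 19.9 CPM in 752 and 9.08 in 751, the reverse of Prox1.

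The 10 genes most like the granule cell score across libraries, among 15584 others, were Rfx3, Mcm6, Dock10, Ntf3, Fam84b, Capn3, Sema5a, Fat4, Gpc4 and Gm16551, with r from 0.967 to 0.944 over 17 libraries. Rfx3 and Dock10 were on the list of 12 other granule cell genes, and the neurotrophin gene Ntf3 was on the CA2 list. Rfx3, a transcription factor of the RFX family, ran from 18.2 CPM in 752 to 75.8 in 751 and 92.2 in female KO Tau 325. Mcm6, a subunit of the replicative helicase, ran from 6.05 CPM in 752 to 20.8 in 751, and the semaphorin gene Sema5a from 42.4 to 173 CPM in the same libraries.

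The group comparisons were fitted across all genes with edgeR (quasi-likelihood F-test), which gives each gene a log2 fold change with its standard error (SE) and an FDR, the Benjamini-Hochberg adjusted p over all genes tested. The 12 male libraries were fitted together (15098 genes) and the 11 Tau libraries together for the female comparison (15419 genes). None of the 10 genes passed an FDR of 0.05 in any of the 7 comparisons, DESeq2 on the same libraries called 0 of them as well (with no adjusted p for Tdo2 in male KO Tau against male KO PBS), and in no pair of groups compared were all libraries of 1 group above all of the other for any of the 10. The comparisons share groups, so they are not independent.

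The estimated effects of tau in WT males were small. Male WT Tau against male WT PBS had a median log2 fold change of 0.02 over the 10 genes (5 higher and 5 lower) and −0.01 over all genes tested. Calb1 differed by -0.31 (SE 0.25, 95% interval -0.87 to 0.24, edgeR FDR 1) and Npnt by -0.22 (SE 0.32, FDR 1), the smallest p-values of the 10. Of the 10 genes 0 passed the FDR (background over all genes 0%), 0 had an unadjusted p under 0.05 (background 1.86%) and 0 had groups that did not overlap (background 12.2%). For Dsp the interval ran from -2.08 to 2.35, so it included a change of 2-fold in either direction.

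The knockout alone, male KO PBS against male WT PBS, gave a median of −0.08 over the 10 genes (4 higher and 6 lower) and 0.01 over all genes. Calb1 differed by -0.42 (SE 0.25, edgeR FDR 0.999) and C1ql3 by -0.28 (SE 0.25, FDR 0.999). Passing genes were 0 of 10 by FDR (background 0.00662%, which is Acss2 alone), 0 by unadjusted p (background 4.42%) and 0 by lack of overlap (background 11.7%). This median followed single libraries: without 751 it was −0.84 with all 10 genes lower, without 752 it was 0.27, and without 753 it was 0.09.

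Tau in knockout males, male KO Tau against male KO PBS, gave a median of −0.06 (5 higher and 5 lower) and 0.00 over all genes. Npnt differed by 0.30 (SE 0.31, edgeR FDR 0.814) and Dsp by -0.70 (SE 1.02, FDR 0.883). Of the 10 genes 0 passed the FDR (background 0%), 0 the unadjusted p (background 7.95%) and 0 lacked overlap (background 9.01%). The median was 0.61 without 751 and −0.81 without 711, with all 10 genes higher in the first case and 7 lower in the second.

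Male KO Tau against male WT PBS, the comparison of both hits with neither, had a median of −0.26 with 9 of 10 genes lower, against 0.00 over all genes. Calb1 differed by -0.40 (SE 0.25, edgeR FDR 0.826) and Npnt, the gene that was higher, by 0.48 (SE 0.31, FDR 0.826). Counts of passing genes were 0 by FDR (background 0.00662%, Acss2 alone), 0 by unadjusted p (background 6.33%) and 0 by lack of overlap (background 14.4%). The median was −0.92 without 711 and 0.07 without 712, then with 6 genes higher. Male KO Tau against male WT Tau, the genotype difference under tau, had a median of −0.24 with 8 of 10 lower, against 0.01 over all genes. Npnt was 0.70 (SE 0.32, 95% interval 0.01 to 1.39) with an unadjusted edgeR p of 0.0474 and an FDR of 0.927. It was the 1 gene of the 10 with an unadjusted p under 0.05 (background 4.71%). Tdo2 differed by -0.84 (SE 0.76, FDR 0.932), and 0 genes passed the FDR (background 0.00662%, Acss2 alone) or lacked overlap (background 12.6%).

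The difference between the tau effects of the 2 genotypes, tested as the genotype by treatment interaction, had a median of −0.12 (5 above and 5 below 0). Npnt was at 0.52 (SE 0.44, edgeR FDR 0.996) and Calb1 at 0.34 (SE 0.36, FDR 0.996). For the 10 genes 0 passed the FDR (background 0%) and 0 the unadjusted p (background 4.18%). The median moved to 0.66 without 751 and to −0.85 without 711.

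In females, KO Tau against WT Tau, all 10 genes had negative estimates with a median of −0.30, against −0.01 over all genes. Fam163b differed by -0.31 (SE 0.23, 95% interval -0.81 to 0.20, edgeR FDR 0.997) and C1ql3 by -0.30 (SE 0.24, FDR 0.997). Again 0 genes passed the FDR (background 0.00649%, Acss2 alone), 0 the unadjusted p (background 2.89%) and 0 lacked overlap (background 16.0%), since library 325 lay at or above the WT level for most genes while 314 and 324 lay below it. The median was −0.74 without 325 and −0.09 without 324, then with 6 of 10 genes lower. The thalamic markers summed to 89.0, 403 and 345 CPM in 314, 324 and 325 and to 427 and 246 CPM in the WT libraries. Nuclear-retained RNAs summed to 4414 to 5714 CPM in KO and 3375 to 3873 CPM in WT females, and astrocyte markers to 2403 to 3380 and 3574 to 4095 CPM. The part of these lists in the result was not tested.

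To set the shared granule cell level of each slice apart from group differences, the score of the 12 other granule cell genes was added to the model as a covariate. Where group and score move together they cannot be told apart in such a fit, so the values with and without it are given side by side. For Prox1 the SE in the 5 pairs of male groups was 0.65 to 0.66 without the covariate and 0.15 to 0.16 with it. For Dsp it was 1.01 to 1.02 without and 0.37 to 0.39 with it, for C1ql2 0.84 and 0.34 to 0.37, and for Tdo2 0.74 to 0.77 and 0.22 to 0.27. For Calb1 (0.25 to 0.27) and Npnt (0.31 to 0.33) it was nearly the same as without it. Most of the spread of the first set thus lay along the level shared with other granule cell genes, and that of Calb1 and Npnt did not.

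With the covariate 0 of the 10 genes passed the FDR in any of the 7 comparisons. The median difference of male KO Tau went from −0.26 to 0.01 against WT PBS, from −0.24 to −0.05 against WT Tau, and from −0.06 (5 genes higher) to 0.17 (9 higher) against KO PBS. The interaction went from −0.12 (5 genes above 0) to 0.26 (8 above 0), male KO PBS against WT PBS from −0.08 to −0.10 and male WT Tau against WT PBS from 0.02 to 0.01. In male KO Tau against male WT Tau Prox1 went from -0.52 to -0.23 (95% interval -0.57 to 0.12) and Dsp from -0.51 to -0.09 (interval -0.94 to 0.76). Npnt, in contrast, was 0.75 (SE 0.33, edgeR FDR 0.87). The female median went from −0.30 to −0.20, and Fam163b there from -0.31 to -0.22 (interval -0.57 to 0.14).

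**Figure D5:**
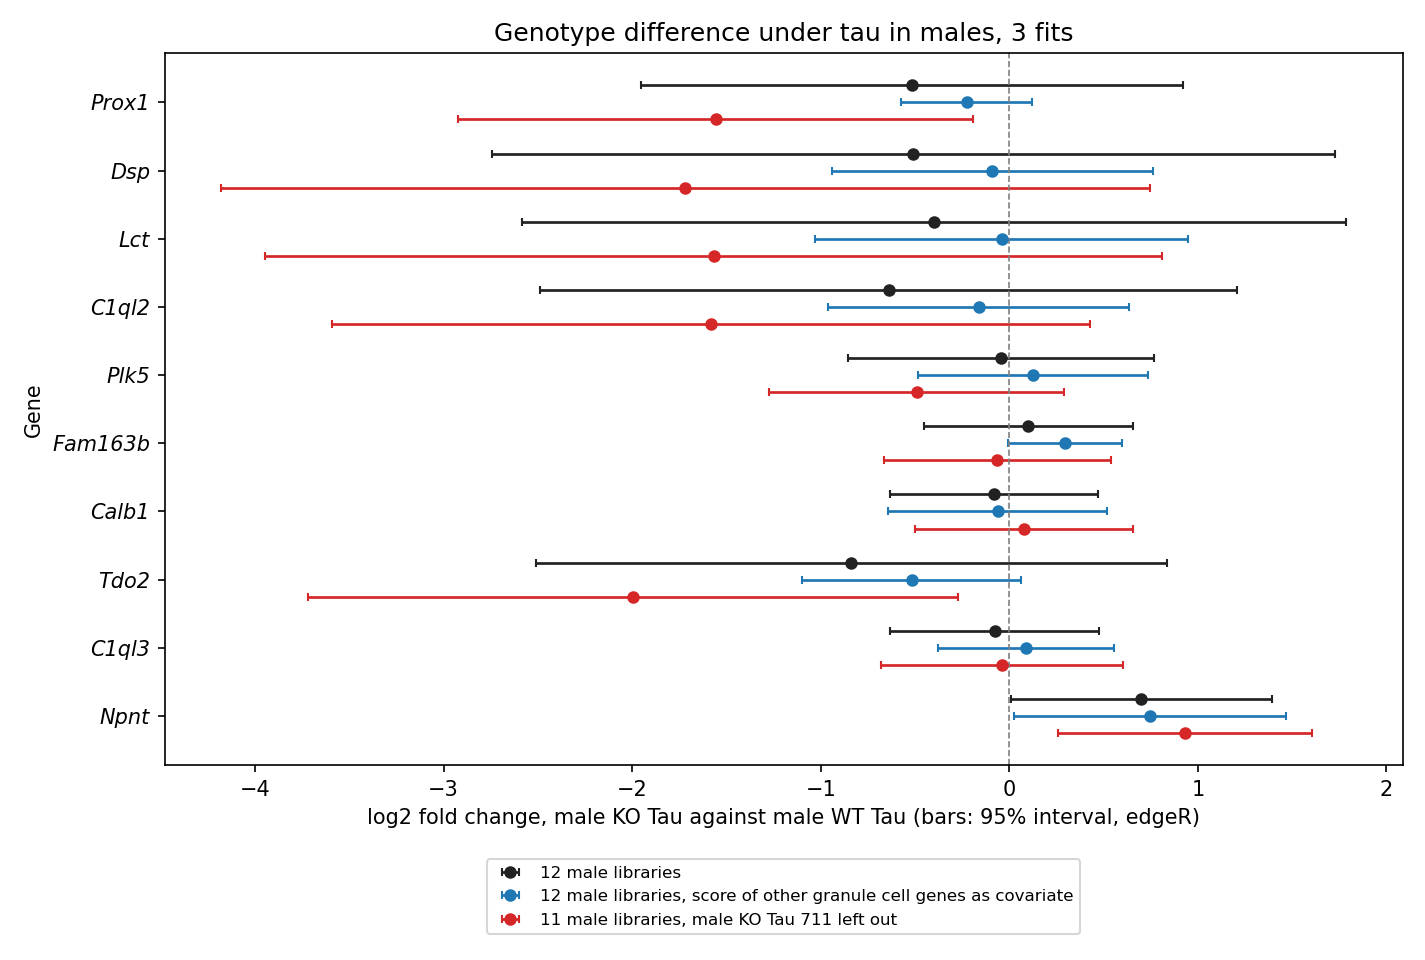
Log2 fold changes of the 10 genes between male KO Tau and male WT Tau with 95% intervals from 3 edgeR fits: the 12 male libraries, the same with the score of 12 other granule cell genes as a covariate, and without male KO Tau 711. The covariate narrows the interval of Prox1 to between -0.57 and 0.12, and leaving out 711 moves its estimate to -1.56.

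Granule cell genes were called in male KO Tau when library 711 was left out and only the groups compared were fitted. The study describes its own bulk comparisons with fewer male KO Tau mice than the libraries deposited, and which one it left out is not given in the sources used here. Library 711 had the highest granule cell score of male KO Tau (5.78). Without it, only libraries 712 and 713 remained in that group, and the median against male WT Tau moved from −0.24 to −1.02. When that group was compared with male WT Tau alone, edgeR called 4 of the 10 genes (background 4.88%): Prox1 at -1.55 (SE 0.20, FDR 0.0164), C1ql2 at -1.58 (FDR 0.013), Tdo2 at -1.99 (FDR 0.0163) and Npnt at 0.94 (FDR 0.0164). DESeq2, which the study also used, called those 4 genes as well. The background of DESeq2 in that fit was 9.25%. Against male WT PBS, edgeR called Prox1, C1ql2 and Tdo2 (background 4.15%), with Npnt at an FDR of 0.0501, and DESeq2 called those 3 and Npnt (background 7.3%). The same DESeq2 fits with 712 left out in place of 711 called 0 of the 10 genes. Over all genes they called 52 of 15216 against male WT PBS and 15 of 19277 against male WT Tau. With 713 left out they also called 0 of the 10, and 7 of 19252 and 6 of 19300 over all genes. In the fit of all male libraries, where the spread of male KO PBS enters too, 0 of the 10 were called without 711, and the FDR of Prox1 against male WT Tau was 0.352.

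With the granule cell score as a covariate in the same DESeq2 fits without 711, C1ql2 and Npnt were called in both comparisons. Against male WT Tau (background 0.813%) C1ql2 was -0.98 (SE 0.23, DESeq2 adjusted p 0.00462) and Npnt 1.34 (SE 0.29, adjusted p 9.60e-04). Against male WT PBS (background 2.01%) C1ql2 was -0.84 (SE 0.18, DESeq2 adjusted p 4.96e-04) and Npnt 1.25 (SE 0.23, adjusted p 1.89e-05). Prox1 was no longer called, at -0.80 (adjusted p 0.388) and -0.51 (adjusted p 0.583), and Tdo2 was not either. The same fits called 1 of the 10 genes, Calb1, against male WT PBS when 712 (background 1.95%) or 713 (background 11.3%) was left out in place of 711. Against male WT Tau they called 0 of the 10. Over all genes they called 244 of 5278 without 712 and 605 of 7865 without 713. There 5 and 1 of the 10 genes had no adjusted p. These fits rest on 5 libraries each, and they and the edgeR fits of only the groups compared without 711 were chosen after seeing the data. Libraries 712 and 713 also held the neocortical and choroid plexus marker sums given above, and their part in these calls was not tested. With both 752 and 712 left out, the 2 libraries with the least granule cell RNA in males, the median of male KO Tau was 0.06 against WT PBS and −0.07 against WT Tau, with 0 of 10 genes called.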

How the data were processed

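Poly(A) RNA of 17 dorsal hippocampus slices was sequenced. The authors aligned reads with STAR 2.5.2 to GRCm38 and counted exon reads per gene with HTSeq 0.9.1 counting the reverse strand, and they deposited raw read counts per gene symbol. The annotation release is not given in the sources used here. The library kit named in the labels does not mark strand, whereas the authors counted the reverse strand and drew coverage tracks by strand. This conflict was not resolved here. Whether RNA of a gene and of an antisense partner can be told apart is therefore not known. Positions and exon lengths came from GENCODE vM21, and promoter sequences from RefSeq on GRCm38.p6.

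Tests used edgeR 4.0.16 in R 4.3.3 (quasi-likelihood F-test, TMM factors, filterByExpr with a minimum count of 10 and minimum total count of 15, Benjamini-Hochberg FDR of 0.05, two-sided). Scripts were tested on simulated data. A score is the mean over genes of log2 CPM (prior count 2). Total counts of 14183131 to 22463635 set the depth, and counting intervals cover counting error only. Alternatives were DESeq2 1.42.0, RLE factors, every gene with at least 1 count, only the groups compared, the granule cell score as a covariate and each replicate left out. Combined fits without single male KO Tau libraries and the fit without 752 and 712 were in part added after seeing the data. The 10 genes, the lists and the comparisons were chosen with earlier results of these data known. All 10 genes were given by value, and in each comparison those with the 2 smallest p-values, or past the FDR, with their statistics. A gene of the list of 12 other granule cell genes entered its score but is not reported here. The 10 most similar genes were ranked by Pearson correlation with the score.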

Additional observations from a re-analysis of the deposited data

How the results depend on the processing

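Over the 7 comparisons, 122 alternative fits were run, and 8 of them called any of the 10 genes. Of the values recomputed, 455 stayed on their side of the threshold or, for medians, moved by less than the spread between libraries (SD of 0.73 in the score), 18 counts and medians moved by more, 9 estimates of single genes came to pass the threshold and 6 changed sign. Of the 122 medians, 27 had the other sign. DESeq2 on the same libraries, RLE factors, no filter on low counts, only the groups compared and the granule cell covariate, each used alone with all replicates, called 0 of the 10 genes in each comparison.

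The 8 fits that called genes left out a male KO Tau library. DESeq2 on only the groups compared without 711 called 4 genes against WT PBS (background 7.3%) and 4 against WT Tau (background 9.25%). For male KO Tau the medians were −1.02 against male WT Tau and −0.81 against male KO PBS, with −0.86 in the interaction. With edgeR in the same setting, chosen after seeing the data, 3 (background 4.15%) and 4 genes (background 4.88%) were called. Its medians were −1.02 against male WT Tau and −0.81 against male KO PBS. With DESeq2 and the covariate, also chosen after seeing the data, 2 (background 2.01%) and 2 genes (background 0.813%) were called without 711. Against male WT PBS, 1 gene (Calb1) was called without 712 (background 1.95%) and 1 without 713 (background 11.3%). In 4 of the 28 DESeq2 fits some of the 10 genes had no adjusted p. The estimate of Dsp for male KO Tau against male KO PBS changed sign to 0.12 with the covariate in edgeR, and in DESeq2 with the covariate to 0.71 without 711, 0.24 without 712 and 0.22 without 713. The cause was not tested.

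With each replicate left out in turn, the median of the 10 genes ran from −0.84 to 0.27 in male KO PBS against male WT PBS, from −0.92 to 0.066 for both hits against neither, from −1.02 to −0.061 in the genotype difference under tau, from −0.068 to 0.12 in male WT Tau against male WT PBS, from −0.74 to −0.089 in females, from −0.81 to 0.61 in male KO Tau against male KO PBS and from −0.85 to 0.66 in the interaction. For male KO Tau against male KO PBS the estimate of Npnt ran from −0.0042 to 0.61 and that of Dsp from −1.91 to 0.93. A group left with 1 or 2 libraries was assumed to vary like the others. The label numbers are not shared between groups and pair no samples. Their last digits run from 1 to 3 in each male group, with no meaning given. Over all genes, deviations from group means correlated above 0.1 in 6 of 18 pairs of libraries with the same digit and in 9 of 36 with different digits, with the highest r for 751 and 711 (0.525) and for 752 and 712 (0.466). With the digit as a replicate block, chosen after seeing the data, edgeR called 0 of the 10 genes in each male comparison, with medians of −0.35 for the knockout alone, −0.51 for both hits against neither and −0.52 for the genotype difference under tau.

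In the male comparisons, groups of 3 with a spread this wide gave intervals over 2 log2 units on either side for Dsp. In the female comparison the SE of Dsp was 0.70. Moderate differences of the most variable genes therefore could not be seen. The labels give no female PBS group, so the effect of tau was not measured in females, and RNA of a slice does not tell cell number from RNA per cell.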
